A study of Mus musculus with 56 samples.

Results

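The 10 genes of hepatic iron control described here were followed through a mouse study of antisense toxicity. They are *Hamp* and *Hamp2* (the hepcidin genes), *Slc40a1*, *Tfr2*, *Hfe*, *Tfrc*, *Bmp6*, *Id1*, *Smad7* and *Tmprss6*. The members were chosen by symbol, through probe sets annotated to exactly 1 gene: 10 of 18194 genes on the array, carried by 21 of 34958 such probe sets. They were picked with results of these arrays in view, so their levels and changes are given as a description, without a test.

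The samples were livers of 56 male CD-1 mice, 6 to 8 weeks old at the start, 1 mouse per array. The mice had received vehicle (phosphate-buffered saline, DPBS) or 1 of 3 LNA gapmers under the skin at 25 mg/kg: NTS-1, which the submitters call non-toxic, TS-2, toxic, or HTS-3, severely toxic. LNA gapmers are short antisense oligonucleotides with locked nucleic acid ends and a DNA centre that directs RNase H to the RNA they pair with. After a single dose the groups held 3 vehicle mice each at 8, 16 and 72 h, 3, 4 and 3 NTS-1 mice, 4, 3 and 4 TS-2 mice, and 3 and 4 HTS-3 mice at 8 and 16 h. All HTS-3 mice meant for 72 h had died or were moribund before it. In the 2-week study 10 vehicle, 4 NTS-1 and 5 TS-2 mice were dosed on days 1, 4, 8 and 11, and livers were taken on day 14. Of 10 mice dosed per single-dose group, the 3 or 4 livers ranked highest for minor hypertrophy were used, so each group is a selected share of its mice. The target of each gapmer was not analysed here.

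Hepcidin is a peptide hormone made by hepatocytes. It binds ferroportin, the iron exporter encoded by *Slc40a1*, and causes its breakdown, so less iron enters the blood. Hepatocytes raise *Hamp* through BMP6 from sinusoidal endothelial cells, which acts on receptors and SMAD proteins with HFE and transferrin receptor 2 as sensors, and through interleukin-6 and STAT3 in inflammation. The protease TMPRSS6 lowers the signal, and *Id1* and *Smad7* are targets of the same BMP signal, *Smad7* being an inhibitor of it.

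Both hepcidin genes lie on chromosome 7 on the minus strand, *Hamp* at 30942368 to 30944029 and *Hamp2* at 30922372 to 30924181 (RefSeq, GRCm38.p6). The 250 bases before each start are shown because these 2 genes had the largest differences after HTS-3 and because the known BMP and STAT elements of *Hamp* lie there. In capitals are, first, the BMP response element of *Hamp* (GGCGCC) and, second, its STAT site (TTCNNNGAA), with the aligned bases of *Hamp2*. The window of *Hamp* is chr7:30944030-30944279 and that of *Hamp2* is chr7:30924182-30924431, each read on the minus strand of GRCm38.p6.
Hamp: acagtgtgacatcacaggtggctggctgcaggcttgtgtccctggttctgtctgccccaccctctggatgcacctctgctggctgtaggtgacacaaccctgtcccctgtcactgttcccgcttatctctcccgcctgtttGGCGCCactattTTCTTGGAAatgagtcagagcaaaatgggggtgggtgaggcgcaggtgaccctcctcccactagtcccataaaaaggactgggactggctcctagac
Hamp2: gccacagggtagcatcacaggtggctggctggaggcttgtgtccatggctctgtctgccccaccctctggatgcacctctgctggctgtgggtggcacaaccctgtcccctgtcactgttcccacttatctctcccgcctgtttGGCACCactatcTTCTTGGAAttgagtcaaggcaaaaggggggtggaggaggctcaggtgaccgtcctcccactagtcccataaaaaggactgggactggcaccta

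The other members lie on chromosomes 1 (*Slc40a1*), 2 (*Id1*), 5 (*Tfr2*), 13 (*Bmp6* and *Hfe*), 15 (*Tmprss6*), 16 (*Tfrc*) and 18 (*Smad7*). Over 247 aligned bases the windows shared 227, or 91.9%. The BMP element of *Hamp* lay 109 to 104 bases before the start, and the aligned bases of *Hamp2* differed from it by G4A, counted from 1 at the element's first base. The STAT site was the same in both, 97 to 89 bases before the start of *Hamp* and 94 to 86 before that of *Hamp2*, and did not overlap the BMP element. RefSeq windows of this length were matched for 6 of the 10 members. Searched on both strands, GGCGCC was present in 9.59% of all 32851 windows and, among the members, in *Hamp* and in a window of *Tfrc*. TTCNNNGAA was present in 7.02% of windows and, among the members, in *Hamp* and *Hamp2*. The E-box CACGTG was present in 6.02% of windows and in that of *Bmp6*, and the SMAD box GTCTAGAC in 0.167% of windows and in none of a member. A match describes the letters of the window and is no evidence of binding.

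Values are log2 of the deposited array intensity, and a change is the gapmer mean minus the vehicle mean of the same time, ± its standard error (SE) from a limma model over all groups of the same study. A value of 1 on this scale is a 2-fold difference. The single-dose and 2-week arrays have different floors and ceilings, so levels are compared within a study only. The mice are separate animals, and the number of arrays limits the precision. In the single-dose study 1 vehicle mouse at 16 h stood apart, with summed intensity of 3 measured neutrophil markers at 25700 against 215.3 and 465.7 in the other 2. The labels of 1 HTS-3 mouse disagree, its title giving 8 h, where it is counted here, and its description 16 h. Hepatocyte markers (5 of 5 measured, including *Alb* and *Ttr*) were bright in every group.

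The hepcidin gene *Hamp* was lower 16 h after HTS-3 than in any other single-dose group. The 4 HTS-3 mice measured 13.58, 14.21, 14.01 and 14.13, and the 3 vehicle mice 15.82, 15.71 and 15.92. Every HTS-3 mouse was thus below every vehicle mouse. The difference was −1.84 ± 0.10, a 3.58-fold lower intensity. The second probe set of *Hamp* gave 13.07, 13.80, 13.57 and 13.22 after HTS-3 and 15.59, 15.38 and 15.64 after vehicle, a difference of −2.12 ± 0.12. That second probe set is of a type that can share probes with related genes, so it may include *Hamp2*. The probe set used for *Hamp* is not of that type. Among the 45101 probe sets of an array, *Hamp* ranked between 640 and 994 in the HTS-3 mice at 16 h and between 33 and 135 in all other single-dose mice.

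At 8 h the 3 HTS-3 mice measured 15.86, 15.88 and 15.81 for *Hamp* and the vehicle mice 16.03, 15.98 and 15.84. These ranges overlapped, and the difference was −0.10 ± 0.11. The mouse whose labels disagree is the one at 15.81. Counted with the 16 h mice, it brought the 16 h difference to −1.47. The vehicle mouse with the high neutrophil markers had 15.82 for *Hamp*, between the other 2 vehicle mice, and without it the difference was −1.84.

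*Hamp2*, the second mouse hepcidin gene, was also lower 16 h after HTS-3. The HTS-3 mice measured 10.64, 12.75, 12.06 and 9.44 and the vehicle mice 13.88, 13.58 and 14.42. The groups did not overlap, but the HTS-3 mice spread over more than 3 log2 units, unlike for *Hamp*, and the difference was −2.74 ± 0.58. *Hamp2* was read by a probe set of a type that can share probes with related genes. Its other probe set was under an intensity of 32, called dim here, on all 37 single-dose arrays. How far the *Hamp2* signal includes *Hamp* was therefore not settled. With the mean of both probe sets the difference was −1.37. The dim probe set read 2.189 on every single-dose array, so that mean only dilutes the −2.74 and is no separate estimate.

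**Figure D1:**
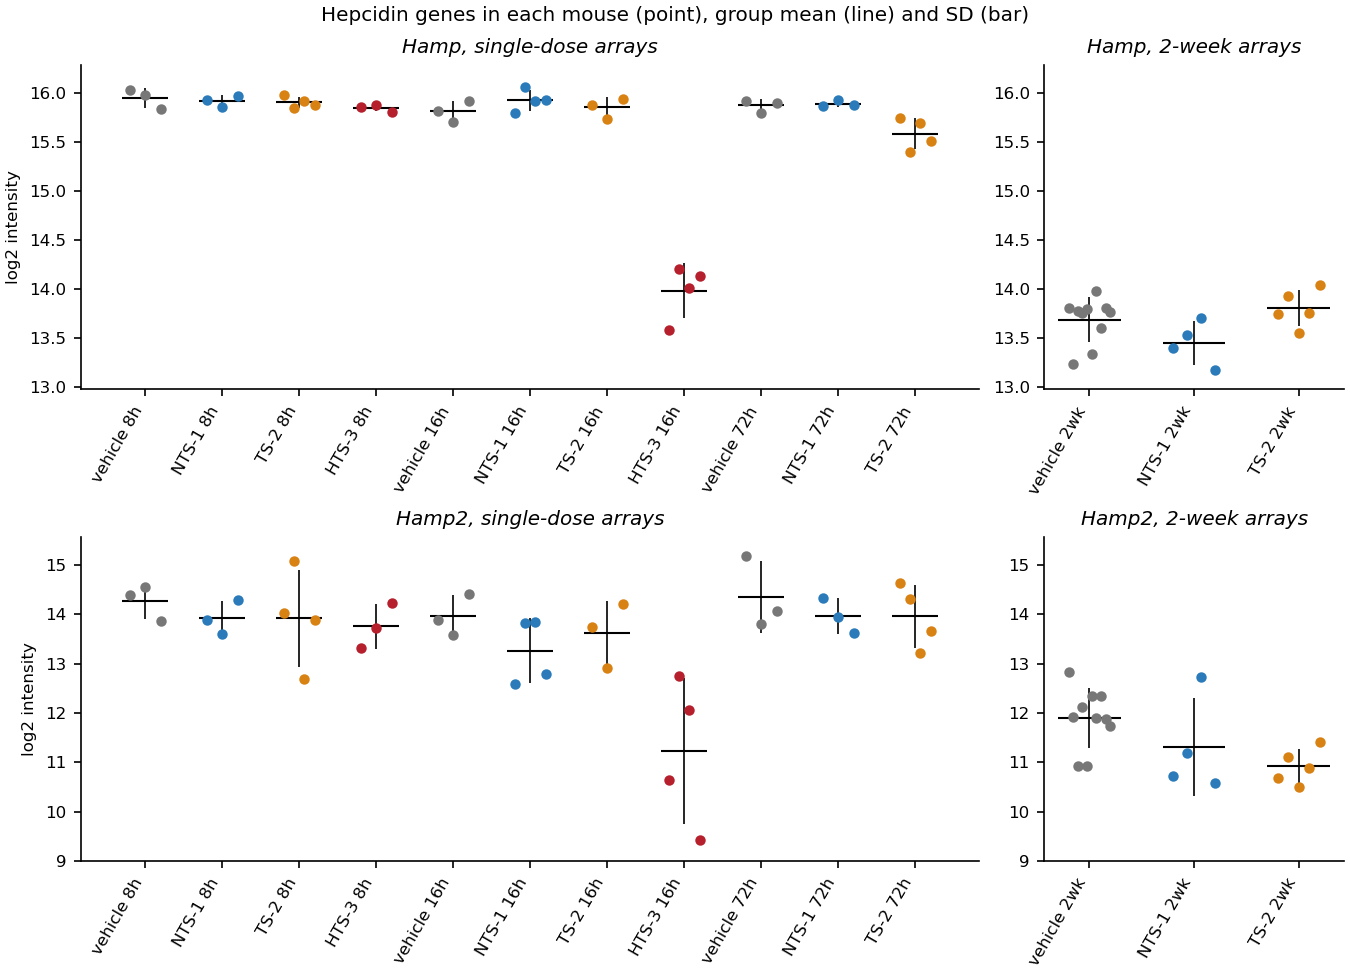
*Hamp* (upper) and *Hamp2* (lower) in every mouse, as log2 intensity, for the 11 single-dose groups and the 3 groups of the 2-week study. Points are mice, lines are group means and bars 1 SD; the 4 HTS-3 mice at 16 h lie between 13.58 and 14.21 for *Hamp*, below all other single-dose mice, and the studies share an axis but are not compared.

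After HTS-3 at 16 h *Hamp* and *Hamp2* were the 2 of 10 members past an adjusted p of 0.05, where 7.35% of all genes tested passed. At 8 h none of the 10 members passed, with 0.588% of all genes. Since the members were chosen on such contrasts, nothing is read from these counts. The other 8 members differed at 16 h by −1.19 to 0.20, all with overlapping groups. *Tfrc*, transferrin receptor 1, which takes up transferrin-bound iron, measured 9.48, 10.06, 10.63 and 8.03 against 10.86, 10.12 and 11.24 in vehicle, a difference of −1.19 ± 0.50. The BMP target *Id1* measured 6.93 to 7.15 against 6.60 to 7.07, a difference of 0.20 ± 0.48. Both HTS-3 mouse 2 and mouse 3 read exactly 7.064 for *Id1*. The same value recurred in other groups, such as vehicle mouse 1 at 72 h and NTS-1 mouse 2 at 8 h. Why separate animals shared it was not tested, so it may not be a measured level.

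HTS-3 mouse 4 at 16 h differed from its group in several of these genes at once. It had the highest values for *Tfr2* (14.36, the others 13.09 to 13.22), *Smad7* (8.12, the others 7.08 to 7.21), *Slc40a1* (14.11, the others 13.26 to 13.93) and *Tmprss6* (13.49, the others 12.96 to 13.06). It had the lowest values for *Hamp2* (9.44) and *Tfrc* (8.03). Its *Hamp*, at 14.13, lay within the range of the other 3, and without this mouse the *Hamp* difference was −1.89.

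At 8 and 16 h after TS-2 or NTS-1, mean *Hamp* lay within 0.11 of vehicle on the log2 scale. The NTS-1 differences were −0.03 ± 0.11 at 8 h, 0.11 ± 0.10 at 16 h and 0.02 ± 0.11 at 72 h. Those of TS-2 were −0.04 ± 0.10 at 8 h and 0.03 ± 0.11 at 16 h. At 72 h the TS-2 mice measured 15.75, 15.40, 15.69 and 15.51 and the vehicle mice 15.92, 15.80 and 15.90. All 4 lay below the vehicle mice, by −0.29 ± 0.10. Ranked by mean, the 9 highest single-dose groups ran from 15.95 ± 0.10 (SD, n = 3) in vehicle at 8 h to 15.82 ± 0.11 (SD, n = 3) in vehicle at 16 h, in steps of at most 0.03, within their spread. TS-2 at 72 h came next at 15.59 ± 0.16 (SD, n = 4) and HTS-3 at 16 h last at 13.98 ± 0.28 (SD, n = 4).

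*Hamp2* varied more between mice of a group than *Hamp*, with SDs of 0.34 to 0.98 in the 10 single-dose groups other than HTS-3 at 16 h. Its differences there lay between −0.33 ± 0.62 (TS-2 at 16 h) and −0.70 ± 0.58 (NTS-1 at 16 h). The gapmer mean was below the vehicle mean each time, but the groups overlapped each time. The comparisons of a time share their vehicle mice.

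None of the 10 members passed the threshold in the other 6 single-dose comparisons. Over all genes, 0.61% passed after NTS-1 at 8 h, 0.148% at 16 h and 0% at 72 h, where limma left 793 of 18194 genes with an unadjusted p under 0.05. After TS-2 the shares were 0.044% at 8 h, 0.0165% at 16 h and 0.137% at 72 h. The ferroportin gene *Slc40a1* measured 13.16, 13.22, 13.31 and 13.10 at 72 h after TS-2 and 13.36, 13.50 and 13.65 in vehicle. The TS-2 mice were all lower, by −0.31 ± 0.14. *Tfrc* measured 9.56, 10.49, 10.65 and 10.02 at 8 h after TS-2 and 8.92, 9.16 and 9.44 in vehicle. The TS-2 mice were all higher, by 1.00 ± 0.50, and the same-time HTS-3 mice, at 10.37, 9.37 and 10.40, overlapped vehicle with a difference of 0.87 ± 0.53.

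*Tfrc* in vehicle differed with time, with means of 9.18 ± 0.26 (SD, n = 3) at 8 h, 10.74 ± 0.57 at 16 h and 10.97 ± 0.32 at 72 h (SD, n = 3 each). The *Tfrc* vehicle range at 8 h lay below both later ranges. Of its 6 probe sets, only the one used here reached an intensity of 32 on single-dose arrays, so a mean over all 6 gave smaller differences, 0.17 after TS-2 and 0.14 after HTS-3 at 8 h. *Bmp6*, the main BMP ligand of hepcidin control, was dim on all 37 single-dose arrays, so its single-dose differences have no level behind them. *Tfr2*, *Hfe*, *Tmprss6*, *Id1* and *Smad7* had overlapping groups in all 8 single-dose comparisons. *Smad7*, like *Id1*, repeated a value between mice, such as 7.176 in vehicle mouse 1 and HTS-3 mouse 3 at 16 h. Its second probe set read 8.375 in vehicle mice 1, 2 and 3 at 16 h.

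**Figure D2:**
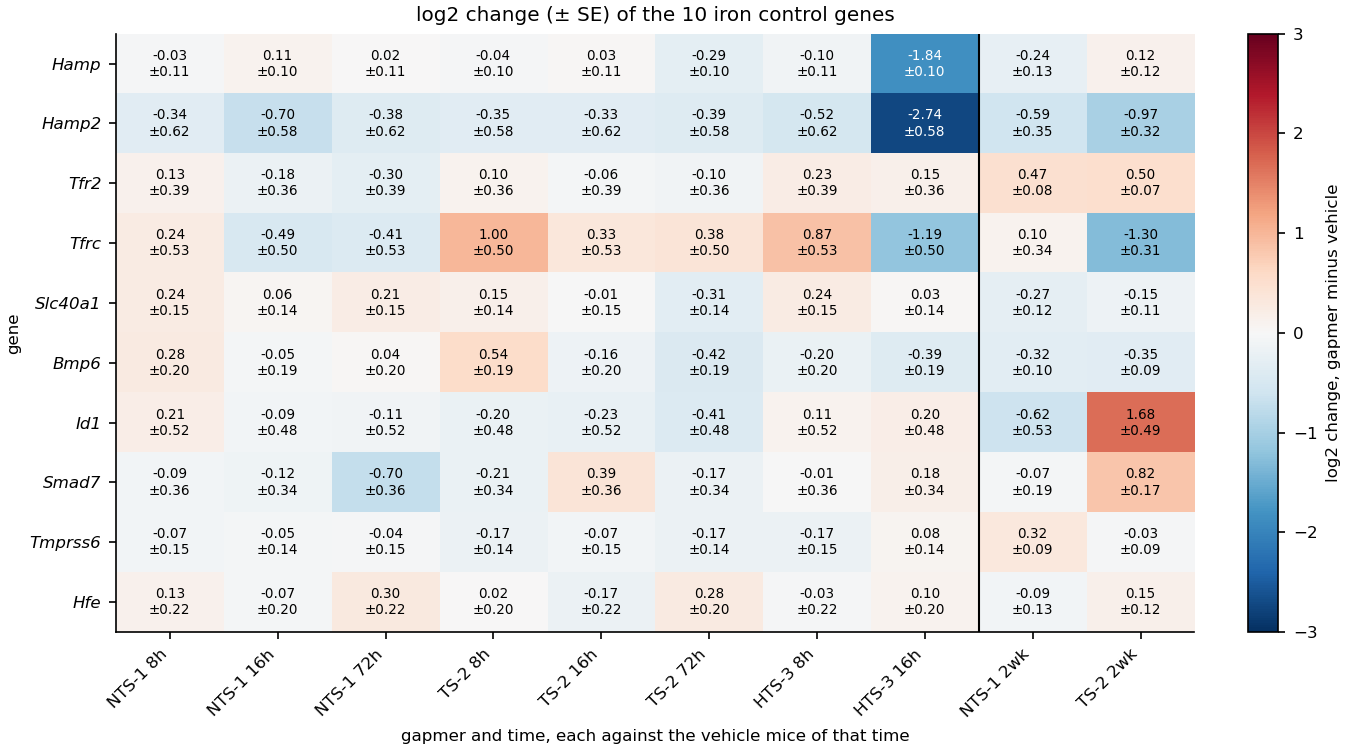
log2 change of each of the 10 genes (rows) in each of the 10 comparisons with same-time vehicle (columns), with its SE; blue is lower and red higher after the gapmer, and the line separates the 2-week study. *Hamp* and *Hamp2* at 16 h after HTS-3 (−1.84 and −2.74) are the largest differences of the single-dose study, and *Id1* (1.68) and *Tfrc* (−1.30) those of the 2-week study.

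In TS-2 livers after 2 weeks, *Id1*, *Smad7* and *Tfr2* were higher, *Tfrc*, *Hamp2* and *Bmp6* were lower, and *Hamp* itself differed by 0.12 ± 0.12. These 6 of 10 members passed the threshold, where 37.4% of all genes tested did. In NTS-1 livers *Tfr2* alone, 1 of 10, passed, against 4.91% of all genes. As above, these counts follow from contrasts used to choose the members.

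*Hamp* measured 13.75, 13.93, 13.55, 13.76 and 14.04 in the TS-2 mice and 13.40, 13.53, 13.70 and 13.17 in the NTS-1 mice. The 10 vehicle mice had a lowest value of 13.24, a median of 13.78 and a highest of 13.98. All 3 groups overlapped, and NTS-1 differed from vehicle by −0.24 ± 0.13. *Hamp2* measured 10.69, 11.11, 10.51, 10.89 and 11.42 after TS-2, against 10.92, 11.92 and 12.84 as the lowest, median and highest of vehicle. The difference of −0.97 ± 0.32 came with overlapping groups.

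The iron sensor *Tfr2*, transferrin receptor 2, was higher with both gapmers. TS-2 mice measured 12.77, 12.77, 12.81, 12.56 and 12.80, NTS-1 mice 12.81, 12.76, 12.72 and 12.59, and vehicle mice between 12.10 and 12.40 with a median of 12.28. No gapmer mouse was as low as any vehicle mouse. The differences were 0.50 ± 0.07 for TS-2 and 0.47 ± 0.08 for NTS-1, which share the vehicle mice. The *Tfr2* probe set used is of the type that can share probes with related genes. The second *Tfr2* probe set, which is not, gave 0.38 ± 0.14 and 0.35 ± 0.15, with overlap.

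*Hfe*, the hemochromatosis gene and partner of the sensor, had probe sets that disagreed. The brighter one differed by 0.15 ± 0.12 after TS-2. The dimmer one measured 8.12, 9.08, 7.52, 9.94 and 8.61 in TS-2 mice against 6.42, 7.00 and 7.73 as the lowest, median and highest of vehicle, a difference of 1.60 ± 0.28. Only 1 of the 5 TS-2 mice, at 7.52, was inside the vehicle range. Which of the 2 reflects the *Hfe* transcript was not settled.

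*Tfrc* measured 9.18, 7.97, 8.96, 7.17 and 8.00 in TS-2 mice and 8.34, 9.72 and 10.27 as the lowest, median and highest of vehicle. Of the 5 TS-2 mice 3 lay below every vehicle mouse, and the difference was −1.30 ± 0.31. In the 4 NTS-1 mice it was 9.71, 9.78, 9.15 and 10.00, within the vehicle range. A second *Tfrc* probe set, which reached detection at 2 weeks, differed by −0.29 ± 0.11 after TS-2.

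The BMP target *Id1* measured 7.38, 9.82, 8.76, 10.51 and 11.83 in TS-2 mice, against 6.97, 7.95 and 9.21 as the lowest, median and highest of vehicle. Mice 2, 4 and 5 were above all vehicle mice, while mouse 1 was in the lower part of their range. The difference was 1.68 ± 0.49, a 3.20-fold higher intensity, with 1 mouse left out in turn between 1.14 and 2.25. *Smad7* measured 7.26, 8.08, 8.34, 7.92 and 8.73 in the same mice, against 6.73, 7.31 and 7.58 as the lowest, median and highest of vehicle. All but mouse 1 were above vehicle, by 0.82 ± 0.17 for the group, and the second *Smad7* probe set differed by 0.73 ± 0.19. That second probe set, of the type that can share probes, was near the limit of detection. It reached an intensity of 32 on 11 of 19 arrays, and its vehicle mean was 4.96. In NTS-1 mice *Id1* ranged from 7.03 to 7.59 and *Smad7* from 7.08 to 7.38, within vehicle.

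The ligand *Bmp6* reached an intensity of 32 in the 2-week study, and TS-2 mice measured 5.20, 5.26, 5.18, 5.25 and 5.16. Vehicle mice had 5.30, 5.54 and 5.84 as the lowest, median and highest. The TS-2 mice were all just below, by −0.35 ± 0.09, close to the limit of 5 on this scale below which a gene is dim. NTS-1 mice, at 5.27, 4.93, 5.57 and 5.19, overlapped vehicle and differed by −0.32 ± 0.10. *Tmprss6*, the protease that damps the signal, measured 12.94, 12.88, 12.91 and 12.89 in NTS-1 mice, above the 12.47 to 12.77 of vehicle, by 0.32 ± 0.09. In TS-2 mice it ran from 12.24 to 12.83 and differed by −0.03 ± 0.09. *Slc40a1* differed by −0.15 ± 0.11 after TS-2 and −0.27 ± 0.12 after NTS-1, with overlap.

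**Figure D3:**
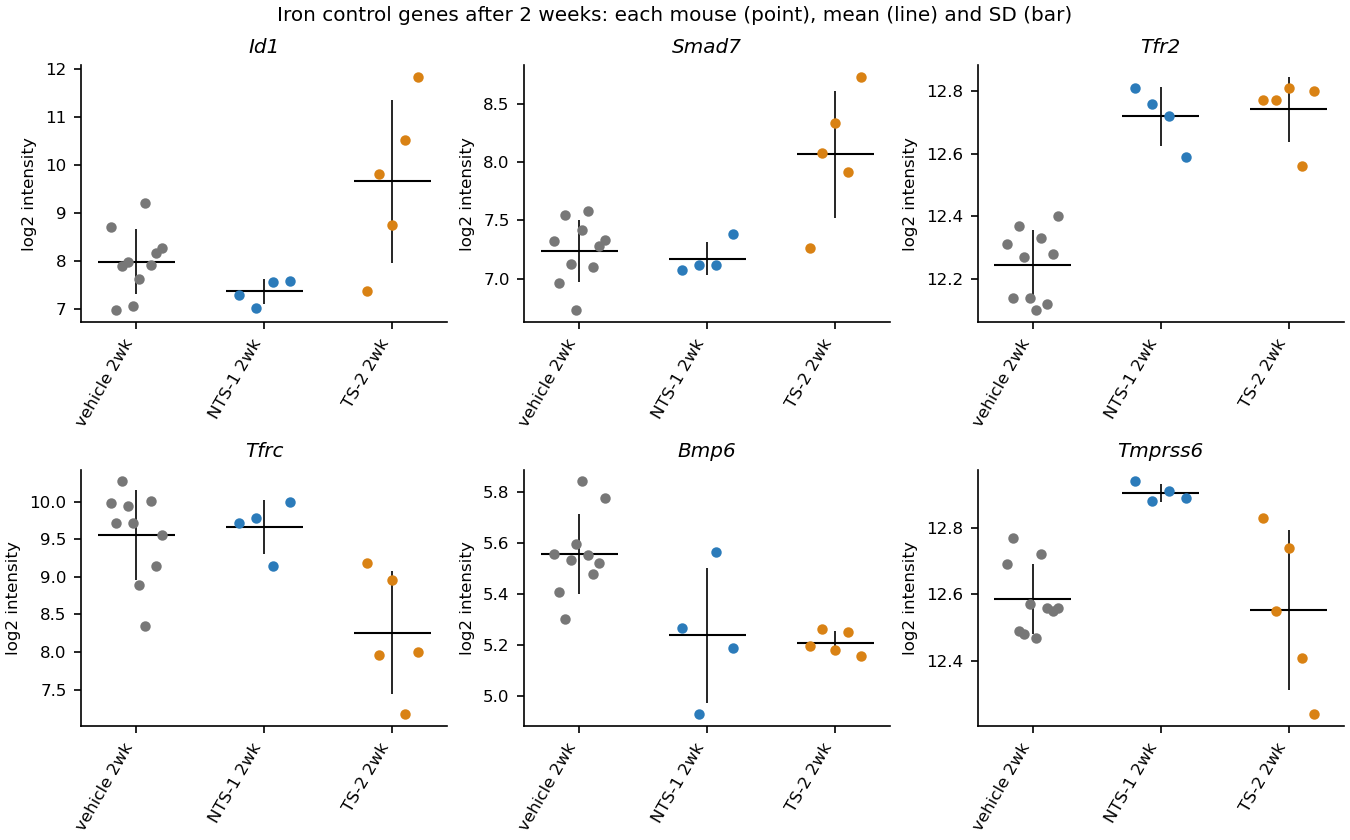
Log2 intensity of 6 iron control genes in each mouse of the 2-week study (points), with the mean (line) and 1 SD (bar) of 10 vehicle, 4 NTS-1 and 5 TS-2 mice; each panel has its own axis. *Id1* and *Smad7* lie above the vehicle mean in at least 4 of 5 TS-2 mice, *Tfr2* lies above vehicle in all mice of both gapmers, and *Tmprss6* in all 4 NTS-1 mice.

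Genes around the 10 members were tested in the same limma fits, with Benjamini-Hochberg adjustment over all genes. They came from lists of iron sensing (26 of 28 genes measured, of BMP and SMAD signalling to hepcidin), iron handling (36 of 40, uptake, storage and release of iron and haem) and the interleukin-6 and acute phase response (27 of 27), 89 genes together. The lists too were drawn up with earlier results of these data known, so a passed test is no independent support. None of the 89 passed in any of the 6 comparisons of NTS-1 and TS-2 after a single dose. The smallest unadjusted p there belonged to *Heph*, hephaestin, a copper ferroxidase that is near detection in liver, 16 h after NTS-1 (−0.67 ± 0.17, adjusted p = 0.22), to *Apcs*, serum amyloid P, 16 h after TS-2 (−0.61 ± 0.18, adjusted p = 0.81), and to *Eng*, endoglin, a BMP co-receptor, 72 h after TS-2 (−0.60 ± 0.20, adjusted p = 0.73), all by limma. Without vehicle mouse 3 of 16 h *Heph* passed after NTS-1 (−0.98, adjusted p = 0.0021). With the mean of its probe sets *Eng* passed 72 h after TS-2 (−1.67, limma adjusted p = 0.00064). TS-2 mouse 3 of 72 h had a summed intensity of 5 sinusoidal endothelial markers of 2384, against a group median of 10290 and 8311 to 9915 in vehicle. Without that mouse the 72 h differences were −0.32 for *Hamp*, −0.35 for *Slc40a1* and −0.58 for *Eng*, beside −0.29, −0.31 and −0.60 with it.

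At 8 h after HTS-3, 2 of 89 passed, 2.25% against 0.588% of all genes, and both rose. They were the acute phase genes *Saa1* (1.54 ± 0.35, adjusted p = 0.034 by limma) and *Saa2* (2.18 ± 0.45, adjusted p = 0.018), higher in 3 of 3 mice. *Saa2* measured 12.82, 13.82 and 12.48 against 11.06, 10.81 and 10.72. *Socs3*, of the same list, went the other way without passing. It measured 9.08, 8.19 and 7.95 against 10.53, 10.87 and 10.34. The median change of that list was 0.03. No iron sensing or iron handling gene passed, and the median changes of these lists were −0.01 and 0.08, beside 0 for all genes. The 0.588% includes many dim genes, and under a stricter cut-off at 32, 81 of the 9134 genes kept passed. Neither *Saa1* nor *Saa2* passed when only the compared groups were fitted, nor without vehicle mouse 2 or 3 of 8 h. *Saa1* did not pass without vehicle mouse 1 or HTS-3 mouse 2 (limma adjusted p = 0.072 and 0.056).

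At 16 h after HTS-3, where *Hamp* was lower, 6 of 89 passed, 6.74% against 7.35% of all genes, 5 of them lower. The 7.35% includes many dim genes. Under a stricter cut-off at 32, 1540 of the 9134 genes kept passed, a larger share. The 6.74% is thus not shown to be level with the background of brighter genes. In iron sensing, 2 of 26 fell and none rose. *Id3*, like *Id1* a BMP target, measured 10.90, 10.48, 10.92 and 10.40 against 12.65, 12.37 and 12.07, a fall of every HTS-3 mouse below vehicle. The change was −1.69 ± 0.27 (adjusted p = 0.00010 by limma), while *Id1*, with the repeated values given above, differed by 0.20 ± 0.48. *Smad6*, an inhibitory SMAD, also passed (−1.01 ± 0.30). Its groups overlapped, and its means of 3.37 after HTS-3 and 4.38 in vehicle were both under an intensity of 32. The median of the list was 0.

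In iron handling, 1 of 36 rose and 1 fell. *Pcbp2*, an iron chaperone, rose by 0.48 ± 0.13 (adjusted p = 0.024 by limma, 4 of 4 mice), and *Heph* fell (−0.57 ± 0.17, adjusted p = 0.040) at a level near detection. Leaving out HTS-3 mouse 4, vehicle mouse 1, or vehicle mouse 3, ended the call of *Pcbp2* (limma adjusted p of 0.074 to 0.099), and leaving out HTS-3 mouse 1, 3 or 4, vehicle mouse 1, or vehicle mouse 2, that of *Heph* (0.062 to 0.26). Of the interleukin-6 and acute phase genes, 2 of 27 fell. *Jak2*, a kinase of cytokine receptors, measured 7.32, 8.38, 7.69 and 7.75 against 9.01, 8.72 and 8.81, a change of −1.06 ± 0.15 (adjusted p = 2.1e-05 by limma). *Orm2*, an acute phase protein gene, fell by −2.82 ± 0.76 (adjusted p = 0.020), but the vehicle mice measured 13.44, 8.48 and 8.35. The first of these is the mouse with high neutrophil markers, and without it *Orm2* changed by −1.14 (adjusted p = 0.31) and 3 list genes passed. It did not pass without HTS-3 mouse 2 either (adjusted p = 0.067). *Id3* and *Jak2* passed without any 1 mouse, and neither passed when only the compared groups were fitted (adjusted p = 0.074 and 0.22).

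Markers of other liver cells moved beside these genes at 16 h after HTS-3. Sinusoidal endothelial cells are the main source of BMP6 in liver. Of their 5 markers *Stab2* (−1.53 ± 0.36) and *Oit3* (−1.18 ± 0.35) fell, where 7.35% of all genes passed, and 1540 of 9134 under the cut-off at 32. The summed intensity of the 5 ran from 6416 to 11860 against 11490 to 14300 in vehicle. Of 5 Kupffer cell markers *Vsig4* fell (−0.86 ± 0.25), and *Marco* was dim. None of 5 hepatocyte markers changed, and their sum ran from 295100 to 318600 against 294700 to 311000. Their part in the hepcidin difference was not tested. In whole liver, fewer cells of a type and less RNA per cell cannot be told apart.

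After 2 weeks of TS-2, 38 of 86 tested list genes passed, 32 higher and 6 lower, 44.2% against 37.4% of all genes. Of all 14454 genes tested, 3301 passed as higher and 2104 as lower, and the counts of each list below stand beside these. In iron sensing 8 of 25 rose and 5 fell, with a median change of 0.23 beside −0.01 for all genes. *Spint2*, a protease inhibitor that can act on TMPRSS6, rose by 1.00 ± 0.10 (adjusted p = 1.4e-06 by limma) and *Fkbp1a*, which binds BMP type I receptors, by 0.95 ± 0.12 (adjusted p = 9.3e-06), each with all 5 mice above vehicle. *Fgl1*, a liver-secreted protein known to lower hepcidin, rose by 1.11 ± 0.31, but did not pass against vehicle mice 1 to 5 only (1.03, limma adjusted p = 0.061), and the BMP co-receptor *Hjv*, hemojuvelin, by 0.77 ± 0.19. The ligands *Bmp2*, made by sinusoidal endothelium in liver (−0.99 ± 0.18, adjusted p = 0.00025), and *Bmp4* (−0.81 ± 0.14) fell, as did the endothelial co-receptor *Eng* (−0.75 ± 0.14). *Id2* fell by 0.56 on the log2 scale while *Id1* was higher.

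In iron handling 13 of 35 rose after TS-2 and 1 fell, with a median change of 0.23. *Lcn2*, lipocalin 2, which binds bacterial iron carriers, measured 6.40, 9.08, 7.97, 10.62 and 13.56 against a vehicle range of 4.87 to 6.10. All 5 mice were above vehicle, by 3.96 ± 0.82 (adjusted p = 0.00080 by limma). *Scara5*, a ferritin receptor, rose by 1.93 ± 0.44 and the metalloreductases *Steap4* and *Steap2* by 1.64 ± 0.29 and 1.09 ± 0.35. *Steap2* did not pass without mouse 4 or mouse 5 (limma adjusted p = 0.071 and 0.055), nor with the mean of probe sets (0.33, adjusted p = 0.13), with array weights (adjusted p = 0.064), or against vehicle mice 1 to 5 or 6 to 10 only (adjusted p = 0.065 and 0.10). The haemoglobin and haem scavenger genes *Hp* (0.54 ± 0.08) and *Hpx* (0.21 ± 0.06) rose in 5 of 5 mice. *Slc39a8*, a metal importer, was the 1 that fell (−0.65 ± 0.12).

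Of the interleukin-6 and acute phase genes, 11 of 26 rose after TS-2 and none fell. The median change was 0.35, beside −0.01 for all genes, of which 37.4% passed. *Orm2* rose by 3.36 ± 0.88 (adjusted p = 0.0049 by limma), *Socs3*, the feedback inhibitor of STAT3 signalling, by 2.17 ± 0.53 (adjusted p = 0.0032), *Saa2* by 2.05 ± 0.62 and *Cebpd* by 1.75 ± 0.31. *Saa2* did not pass without mouse 5 (limma adjusted p = 0.063), or against vehicle mice 1 to 5 or 6 to 10 only (adjusted p = 0.092 and 0.057). The mice differed. Mouse 5 had the highest *Lcn2* (13.56), *Socs3* (11.04), *Saa2* (13.52), *Id1* (11.83), *Smad7* (8.73) and *Hamp* (14.04) of the group. Mouse 1 had the lowest *Lcn2* (6.40), *Orm2* (6.36), *Saa2* (9.14), *Id1* (7.38) and *Smad7* (7.26), while its *Socs3* (8.61) was below only that of mouse 5.

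In the same TS-2 livers, where 37.4% of all genes passed, 4 of 5 sinusoidal endothelial markers fell. They were *Oit3* (−1.27 ± 0.20), *Clec4g* (−1.20 ± 0.20), *Fcgr2b* (−1.18 ± 0.25) and *Stab2* (−0.72 ± 0.19). The summed intensity of the 5 ran from 1097 to 3070, with a median of 1214, against a median of 3076 in vehicle. The single calls of the other cell types below stand beside the same 37.4%. Of 5 Kupffer cell markers *Marco* alone passed, as higher (1.71 ± 0.53), and the median change of the 5 was 0.20. Of 4 monocyte and macrophage markers *Cd68* alone rose (1.20 ± 0.38), with a median of 0.01. Of 5 stellate cell markers *Dcn* alone rose (0.62 ± 0.16), with a median of 0.09. The summed Kupffer cell intensity had a median of 1584 after TS-2, against 1577 in vehicle. Of 5 hepatocyte markers *Apoa1* fell (−0.15 ± 0.05), and their sum was 116500 to 125300 against 126600 to 131800. The part of these cells in the changes of *Bmp6*, *Bmp2* and *Id1* was not tested.

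After 2 weeks of NTS-1, 4 of 86 list genes passed, 4.65% against 4.91% of all genes. The share of all genes moved with the setting. Of 14454 genes, 709 passed in the main fit and 709 against vehicle mice 6 to 10 only. Against vehicle mice 1 to 5 only 1 passed, and with the replicate block (a term for each mouse number) 0. Numbers 6 to 10 occur only in vehicle, so the block in effect leaves those mice out too. *Bmp2* (−0.71 ± 0.20), *Id2* (−0.46 ± 0.13) and *Fbxl5*, the iron-sensing ubiquitin ligase subunit (−0.62 ± 0.16), fell, and *Steap3*, a ferric reductase, rose (0.29 ± 0.08), with adjusted p between 0.034 and 0.045 by limma. With the mean of probe sets *Steap3* differed by 0.02 (limma adjusted p = 0.92). No interleukin-6 or acute phase gene passed, *Creb3l3* coming nearest (0.21 ± 0.08, adjusted p = 0.12). Of the 5 sinusoidal markers *Fcgr2b* (−0.99 ± 0.27) and *Oit3* (−0.90 ± 0.22) fell here too, where 4.91% of all genes passed. The calls of the list genes depended on single mice. No list gene passed without NTS-1 mouse 2 or 3, or without vehicle mouse 3, 4, 5, 6, 8 or 9. Leaving out NTS-1 mouse 1 or 4 or vehicle mouse 10 left 1 list gene, and 10 passed without vehicle mouse 2. These counts do not cover the markers.

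**Figure D4:**
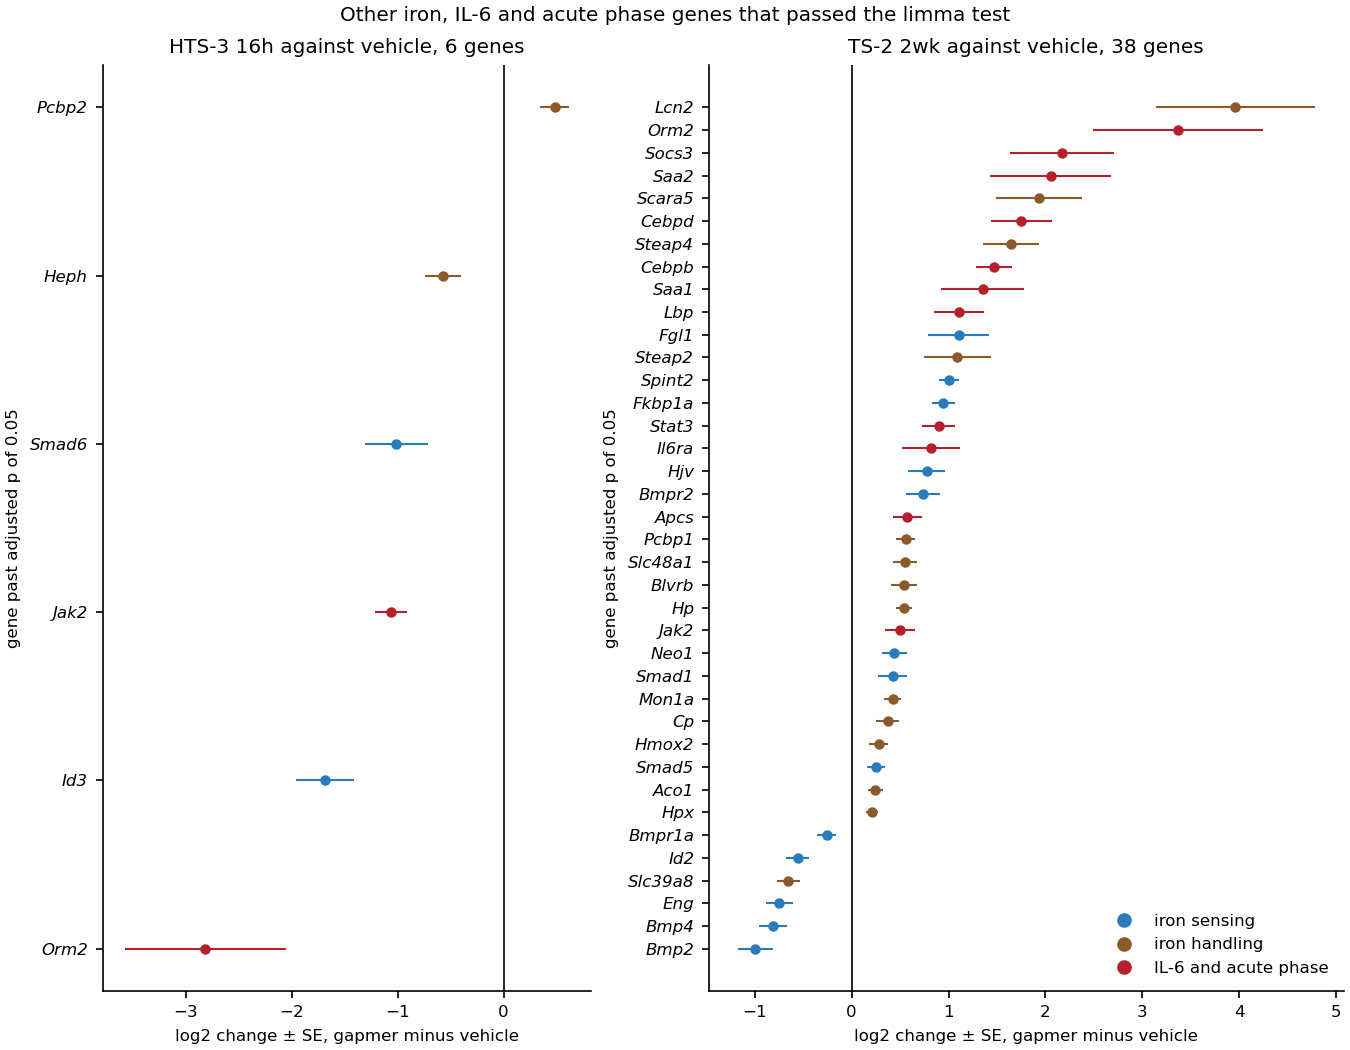
log2 change ± SE of the genes outside the 10 members that passed limma's adjusted p of 0.05, 16 h after HTS-3 (6 genes, left) and after 2 weeks of TS-2 (38 genes, right), coloured by list. After HTS-3 *Pcbp2* alone rose, whereas after TS-2 32 rose, with *Lcn2* (3.96) and *Orm2* (3.36) at the top, and 6 fell.

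The genes whose level followed *Hamp* most closely over the 37 single-dose mice, out of 8739 genes detected on at least 50% of arrays, were *Vti1a* (Pearson r = 0.94), *Atg10* (0.94), *Atrnl1* (0.93), *Diaph2* (0.92) and *Nsmce2* (0.92). *Hamp2* came at rank 220 (0.77). The points share the study's groups, and over the 33 mice without HTS-3 at 16 h the same 5 genes had r of 0.48, 0.49, 0.11, 0.21 and −0.17 and *Hamp2* 0.13. Over the 19 mice of the 2-week study, among 13004 genes, the closest were *Ddx5* (0.89), *Nudt4* (0.87), *Jak1* (0.87), *Map3k2* (0.85) and *Foxa3* (0.85). There *Id1* had r = 0.62 with *Hamp*, *Slc40a1* 0.44, *Hamp2* 0.12 and *Tmprss6* −0.53. These are descriptions of the arrays.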

How the data were processed

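Liver RNA was labelled and hybridised to Affymetrix arrays of 45101 probe sets, per the labels. The deposited values are linear intensity values, which the authors made with RMA, per the submitters' processing notes (version not given in the sources used here). They were converted to log2. Of 34958 probe sets with 1 gene symbol, the one with the highest mean per gene was used, and genes reaching the 40th percentile of all probe sets on at least 3 arrays were tested, 18194 in the single-dose and 14454 in the 2-week set, which were fitted apart. That filter removed no single-dose gene, and 44.12 to 47.33% of the probe sets of a single-dose array lay at its floor. Shares of all single-dose genes therefore include many dim genes. A stricter cut-off, at 32 in place of that percentile, kept 9134 single-dose genes. An intensity under 32 on all arrays of a group was called dim. limma 3.58.1 in R 4.3.3 fitted 1 mean per group, with Benjamini-Hochberg adjustment and a threshold of 0.05, and was tested on simulated data. Members, lists and comparisons were chosen with earlier results of these data known. Genes named are all members, up to 4 called genes per list with the largest change at an intensity of 32 or more, or those nearest the threshold; other genes of the lists were named after their values were seen. Same-numbered mice did not deviate together (correlations of −0.50 to 0.42). No 2 arrays were identical. Promoters are those of RefSeq, and proteins were not used here.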

Additional observations from a re-analysis of the deposited data

Results flagged for a closer look

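In 6 of 70 member groups of 4 to 10 mice, 1 mouse stood far from the rest by Dixon's criterion, which chance alone meets in about 1 in 20 groups. That rate is for separate groups without tied values. Here some flagged groups hold tied values and the genes share their mice, so the count cannot be set against it. HTS-3 mouse 4 at 16 h had *Tfr2* at 14.36 (nearest 13.22) and *Smad7* at 8.12 (nearest 7.21). HTS-3 mouse 2 had *Bmp6* at 4.26 (the others 3.90), where the gene is dim. *Smad7* was low in NTS-1 mouse 4 at 16 h (6.79, nearest 7.18) and high in NTS-1 mouse 4 at 2 weeks (7.38, nearest 7.12). *Tfr2* was low in TS-2 mouse 4 at 2 weeks (12.56, nearest 12.77).

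For 4 members every mouse lay on opposite sides of the vehicle mean at 2 times of the same gapmer, a difference that was not tested. *Tfrc* differed by 0.87 at 8 h and −1.19 at 16 h after HTS-3. After TS-2, *Slc40a1* differed by 0.15 at 8 h and −0.31 at 72 h, *Smad7* by −0.21 at 8 h and 0.39 at 16 h, and *Hfe* by −0.17 at 16 h and 0.28 at 72 h.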

How the results depend on the processing

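The *Hamp* difference 16 h after HTS-3 kept its direction under every alternative run, between −1.92 and −1.71 with 1 mouse left out in turn, and was −1.84 with the replicate block. It moved to −1.47 with the HTS-3 mouse of disputed time counted at 16 h. Counts of other iron genes moved more. With array weights 1 passed 16 h after NTS-1 and 2 after TS-2 (0 in the main fit), 5 passed 8 h after HTS-3 (main 2) and 12 after 2 weeks of NTS-1 (main 4). With the mean of probe sets 1, *Eng*, passed 72 h after TS-2 (main 0). With the compared groups fitted alone 0 passed 8 h and 0 passed 16 h after HTS-3 (main 6), while over all genes 4 and 59 passed in place of 107 and 1337. With vehicle mice 1 to 5 only, 0 passed after 2 weeks of NTS-1, with vehicle mice 6 to 10 only, 2, and with the replicate block 0. Over all genes these 3 settings gave 1, 709 and 0, where the main fit gave 709. After 2 weeks of TS-2 *Fgl1*, *Steap2*, *Saa2* and *Orm2* did not pass with the replicate block (limma adjusted p = 0.072, 0.086, 0.10 and 0.051). In the 2-week study mice numbered 6 to 10 occur only in vehicle, so the block in effect leaves them out. After TS-2 *Fgl1* (1.03), *Steap2* (1.16) and *Saa2* (1.93) had the same differences with the block as against vehicle mice 1 to 5 only. These settings are thus not separate alternatives. Leaving out 1 mouse in turn gave 0 to 3 at 8 h and 3 to 8 at 16 h after HTS-3, 0 to 10 after 2 weeks of NTS-1, 30 to 43 after 2 weeks of TS-2, 0 to 1 at 16 h after NTS-1 and 0 to 1 at 8 h after TS-2. The other 4 comparisons stayed at 0. *Hfe* after 2 weeks of TS-2 was 0.88 and *Tfrc* −0.30 with the mean of probe sets, several of which are dim.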
